A study of Mus musculus with 12 samples.

Results

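The NMDA receptor subunits are the products of a small gene family, and all 7 of its genes in the mouse (Grin1, Grin2a, Grin2b, Grin2c, Grin2d, Grin3a and Grin3b) were taken by symbol from the 47069 distinct gene identifiers of the deposited table. No gene of the family was taken or left out by its values, but the family itself was chosen with earlier results of these data known. Expression was measured by stranded total RNA-seq in GFP+ cells sorted from heterozygous Pdgfra-H2BGFP mice (C57BL/6NJ background), in which a nuclear green fluorescent protein is made under the control of Pdgfra, the gene of the platelet-derived growth factor receptor that marks oligodendrocyte precursor cells (OPCs). The 4 groups, with 3 libraries each, came from an embryonic age (E13.5) and a postnatal age (P7), and at each age from brain (forebrain, per the study's methods) and from spinal cord. All 12 libraries carried 1 reporter allele in place of a working Pdgfra allele, and each is a pool of sorted cells of several animals of both sexes.

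The model has limits that touch each value. GFP outlasts Pdgfra mRNA, so GFP+ cells at P7 also hold early stages of oligodendrocyte differentiation, and at E13.5 Pdgfra is active in other progenitors and in mesenchymal cells as well. E13.5 tissue was dissociated mechanically and P7 tissue with papain, so age and dissociation cannot be told apart. In pooled RNA, fewer cells that express a gene and less RNA per cell cannot be told apart either.

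NMDA receptors are glutamate-gated cation channels built from 4 subunits. GluN1 (Grin1) is obligatory and binds the co-agonist glycine or D-serine. GluN2 subunits (Grin2a to Grin2d) bind glutamate and set the channel's kinetics and its block by magnesium, with GluN2B and GluN2D the usual early forms in the nervous system and GluN2A and GluN2C rising later. GluN3 subunits (Grin3a and Grin3b) bind glycine and lower calcium entry and magnesium block. Cells of the oligodendrocyte lineage receive synapses from axons and are known to carry NMDA receptors, GluN3A among their subunits.

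Libraries held 12566345 to 38790312 reads that could be recovered from the deposited CPM (read counts scaled to library size), and every P7 library was deeper than every E13.5 library. E13.5 spinal cord replicate 3 stood apart. Protein-coding genes held 41% of its reads, against 82.4% to 91.2% in the other 11 libraries, so the calls of subunit genes and the list counts that change without it are given beside them. P7 replicates 1 and 2 were closer to each other than other pairs in both regions. They differed by more than sampling noise, which alone cannot show that their pools were separate. The study describes 3 pooled biological replicates per group, and they were kept as separate libraries. With these replicates averaged, 4, 5, 3, 2 and 4 subunit genes were called for age in brain, age in spinal cord, the regions at E13.5 and at P7, and their shift. Pdgfra stood at 688 ± 139 CPM in brain and 444 ± 97.9 in spinal cord at E13.5 (mean ± SD, n = 3 here and below), and at 3127 ± 423 and 2089 ± 66.3 CPM at P7, so the sorted gene was present in all groups and called higher at P7 in both regions.

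Of the 7 subunit genes, 6 passed the filter for testing (at least 0.7 CPM in at least 3 libraries) and Grin3b did not. A gene was called when its change on the log2(CPM + 0.5) scale exceeded 2-fold at a Benjamini-Hochberg adjusted p below 0.05 over all 18319 genes tested, by limma on all 12 libraries. In brain, 4 of the 6 were called between ages, 3 higher at P7 (Grin1, Grin2a, Grin3a) and 1 lower (Grin2c), where 27.7% of all tested genes were called, 11.0% higher and 16.7% lower. In spinal cord, 5 of the 6 were called, 2 higher at P7 (Grin1, Grin3a) and 3 lower (Grin2a, Grin2b, Grin2c), where 35.1% of all tested genes were called, 16.9% higher and 18.2% lower. At E13.5, 3 of the 6 were called between regions, 1 higher in brain (Grin2c) and 2 lower (Grin1, Grin2a), against 8.71% of all tested genes, 3.53% higher and 5.17% lower. At P7, 2 of the 6 were called, both higher in brain (Grin2a, Grin2b), against 6.62% of all tested genes, 2.27% higher and 4.35% lower. The brain minus spinal cord difference itself shifted with age in 4 of the 6, all toward brain (Grin1, Grin2a, Grin2b, Grin2d), against 16.3% of all tested genes, 6.66% in that direction and 9.66% in the other.

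**Figure D1:**
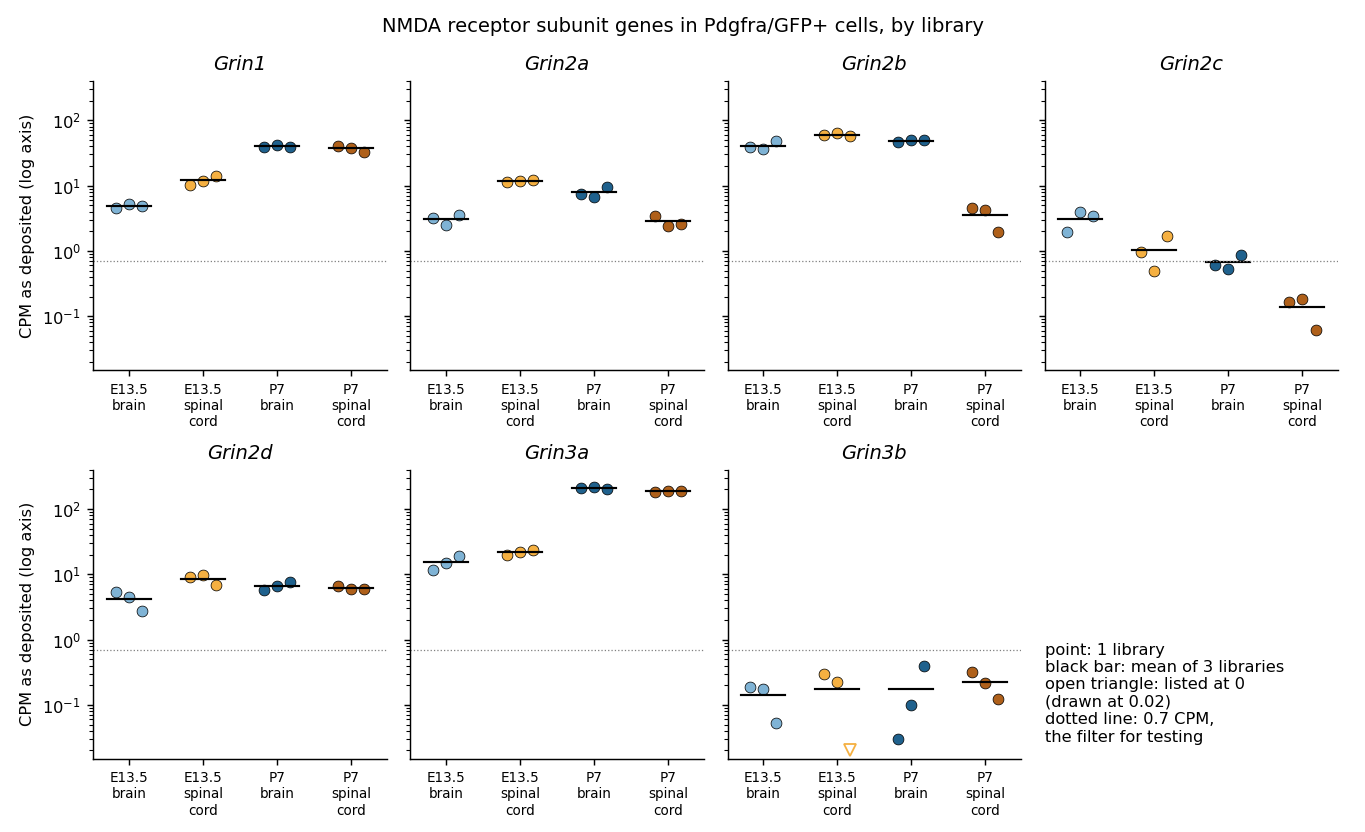
Deposited CPM of each NMDA receptor subunit gene on a log axis, with 1 point for each of the 3 libraries of a group and a black bar at the group mean. Grin3a lies between 184 and 216 CPM in all P7 libraries and between 11.5 and 23.3 in all E13.5 libraries, Grin2b falls to 1.95 to 4.51 in P7 spinal cord alone among the groups, and Grin3b stays under the dotted line at 0.7 CPM everywhere.

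Grin1 encodes the subunit that every NMDA receptor needs (chromosome 2, 25291181 to 25319187, minus strand, GRCm38). At E13.5 the brain libraries read 4.61, 5.23 and 4.93 CPM and the spinal cord libraries 10.3, 11.6 and 14.2 CPM. At P7 it read 39.5, 41.5 and 38.4 CPM in brain and 40.3, 37.7 and 33.3 CPM in spinal cord. All P7 libraries lay above all E13.5 libraries, the regions were apart at E13.5, and they overlapped at P7.

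The rise of Grin1 was 2.90 ± 0.12 on the log2(CPM + 0.5) scale in brain (limma, ± SE, adjusted p = 1.84e-09) and 1.59 ± 0.12 in spinal cord (adjusted p = 1.48e-07). At E13.5 it was 2.29-fold higher in spinal cord than in brain (adjusted p = 1.46e-05). At P7 the brain minus spinal cord difference was 0.10 on the log2 scale with a 95% interval from -0.16 to 0.37, so a 2-fold difference in either direction lies outside the interval. The regional difference changed with age by 1.30 ± 0.17 (adjusted p = 0.000127). Without E13.5 spinal cord replicate 3, which held the highest Grin1 value of its group, the rise in spinal cord was 1.71 and the E13.5 difference was -1.08, both still called.

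Grin2b encodes GluN2B, the GluN2 subunit that prevails in the embryonic forebrain (chromosome 6, 135713233 to 136173511, minus strand). At E13.5 its level was 38.8, 36.0 and 48.7 CPM in the brain libraries and 60.4, 63.4 and 58.2 CPM in those of the spinal cord. In P7 brain it read 45.8, 49.4 and 50.0 CPM. In P7 spinal cord it read 4.51, 4.23 and 1.95 CPM, from 167, 137 and 63 reads, so the highest of these libraries lay far under the lowest library of any other group.

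With age, Grin2b fell 15.8-fold in spinal cord (log2 change -3.98 ± 0.22, adjusted p = 7.48e-09), at percentile 0.770 of tested genes. In brain its change was 0.24 ± 0.22 (adjusted p = 0.351), with an interval from -0.23 to 0.71, and the 2 groups of brain libraries overlapped. The P7 difference between regions was 12.6-fold (log2 3.66 ± 0.22, adjusted p = 2.70e-07), at percentile 99.96 of tested genes. At E13.5 the order was the opposite, with all spinal cord libraries above all brain libraries, but the difference of -0.57 ± 0.22 was not called (adjusted p = 0.0645). The change of the regional difference with age was 4.22 ± 0.31 (adjusted p = 2.44e-06), the widest among the 6 subunit genes. Leaving out each library in turn kept the fall in spinal cord between -4.17 and -3.65 and the P7 difference between 3.33 and 3.84.

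Grin2a encodes GluN2A, the subunit of mature and faster receptors (chromosome 16, 9567898 to 9995560, minus strand). At E13.5 it read 3.18, 2.46 and 3.59 CPM in brain, against 11.4, 11.8 and 11.98 CPM in spinal cord. At P7 it read 7.54, 6.61 and 9.61 CPM in brain, against 3.43, 2.44 and 2.61 CPM in spinal cord. None of the 4 comparisons had overlapping groups, and the order of the regions turned over between the ages. In brain Grin2a rose with age by 1.23 ± 0.18 (adjusted p = 6.17e-05) and in spinal cord it fell by 1.89 on the log2 scale (SE 0.18, adjusted p = 9.45e-07). It was 3.45-fold higher in spinal cord at E13.5 (adjusted p = 1.16e-05) and 2.53-fold higher in brain at P7 (adjusted p = 0.000156). The shift of the regional difference was 3.12 ± 0.25 (adjusted p = 4.36e-06). The E13.5 values of the spinal cord library with few protein-coding reads did not stand out for this gene, and without it the fall in spinal cord was -1.88.

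Grin2d encodes GluN2D, which gives slow and weakly magnesium-blocked channels (chromosome 7, 45831883 to 45878378, minus strand). The E13.5 libraries read 5.27, 4.44 and 2.79 CPM for brain and 9.11, 9.69 and 6.75 CPM for spinal cord. At P7 it read 5.75, 6.51 and 7.71 CPM in brain and 6.51, 6.02 and 5.96 CPM in spinal cord, with overlapping regions. Its levels lay between 2.79 and 9.69 CPM over the 12 libraries, and it was called in none of the 4 comparisons of groups. The log2 changes were 0.65 ± 0.21 with age in brain (adjusted p = 0.0166) and -0.42 ± 0.21 with age in spinal cord (adjusted p = 0.0861). Between regions they were -0.97 ± 0.21 at E13.5 (adjusted p = 0.00324), just under 2-fold, and at P7 0.10 ± 0.21 (adjusted p = 0.774). The E13.5 difference was past 2-fold and called without E13.5 spinal cord replicate 3 (-1.12), E13.5 brain replicate 1 (-1.15) or E13.5 brain replicate 2 (-1.03). The shift of its regional difference, 1.07 ± 0.29 (adjusted p = 0.0121), was just past 2-fold. It lost that call without E13.5 brain replicate 3 (0.84), E13.5 spinal cord replicate 2 (0.97) or P7 brain replicate 3 (0.97).

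Grin2c encodes GluN2C, known in the adult from cerebellar granule cells and some glia (chromosome 11, 115249169 to 115267243, minus strand). Its E13.5 levels were 1.95, 3.997 and 3.38 CPM for brain and 0.953, 0.489 and 1.69 CPM for spinal cord. At P7 it read 0.606, 0.529 and 0.871 CPM in brain and 0.162, 0.185 and 0.0620 CPM in spinal cord, where the 3 libraries held 6, 6 and 2 reads.

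Groups of Grin2c did not overlap in any of the 4 comparisons, with E13.5 above P7 and brain above spinal cord. It fell with age by 1.59 on the log2 scale in brain (SE 0.29, adjusted p = 0.000392) and by 1.21 in spinal cord (SE 0.29, adjusted p = 0.00232), and it was 2.39-fold higher in brain at E13.5 (adjusted p = 0.00514). The added 0.5 CPM compresses these values: the ratios of mean CPM were 4.65 in brain and 7.65 in spinal cord for E13.5 over P7. The fall in spinal cord was not called without E13.5 spinal cord replicate 3 (-0.92), and the E13.5 difference was not called without E13.5 spinal cord replicate 2 (0.97). The P7 difference between regions, 0.87 ± 0.29 (adjusted p = 0.0374), was under 2-fold on this scale, but edgeR on the recovered reads gave 2.48 and called it. The shift of the regional difference was -0.38 ± 0.41 (adjusted p = 0.485) and its sign turned with the tool.

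Grin3a encodes GluN3A, the glycine-binding subunit that lowers calcium entry (chromosome 4, 49661611 to 49845744, minus strand). It was the most abundant member at P7. Among E13.5 libraries it read 11.5, 14.98 and 19.1 CPM for brain and 19.5, 21.96 and 23.3 CPM for spinal cord. At P7 it read 212, 216 and 204 CPM in brain and 184, 190 and 189 CPM in spinal cord. All P7 libraries lay far above all E13.5 libraries, and the SD at P7 was 3.01% of the mean in brain and 1.72% in spinal cord.

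Grin3a rose 13.7-fold in brain (log2 3.78 ± 0.14, adjusted p = 7.38e-10) and 8.54-fold in spinal cord (3.10 ± 0.14, adjusted p = 1.87e-09), at percentiles 99.3 and 98.04 of all tested genes. The regions did not differ past the thresholds: the brain minus spinal cord value was -0.52 ± 0.14 at E13.5 (adjusted p = 0.0137), with an interval from -0.82 to -0.21, and 0.16 ± 0.14 at P7 (adjusted p = 0.418), with an interval from -0.14 to 0.47. The shift of the regional difference was 0.68 ± 0.20 (adjusted p = 0.0167), under 2-fold. Without E13.5 spinal cord replicate 3 the rise in spinal cord was 3.15 and the E13.5 difference -0.46.

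Grin3b encodes GluN3B, known mainly from motor neurons (chromosome 10, 79970715 to 79977190, plus strand). It held 0 to 15 reads in a library and never more than 0.396 CPM. At E13.5 it read 0.190, 0.176 and 0.0536 CPM for brain and 0.298, 0.222 and 0 CPM for spinal cord. At P7 it read 0.0303, 0.0992 and 0.396 CPM for brain and 0.324, 0.216 and 0.124 CPM for spinal cord. All groups overlapped. In the library listed at 0, a count of 0 allows up to 3 reads, or 0.506 CPM. With so few reads and overlapping groups, Grin3b was not tested.

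**Figure D2:**
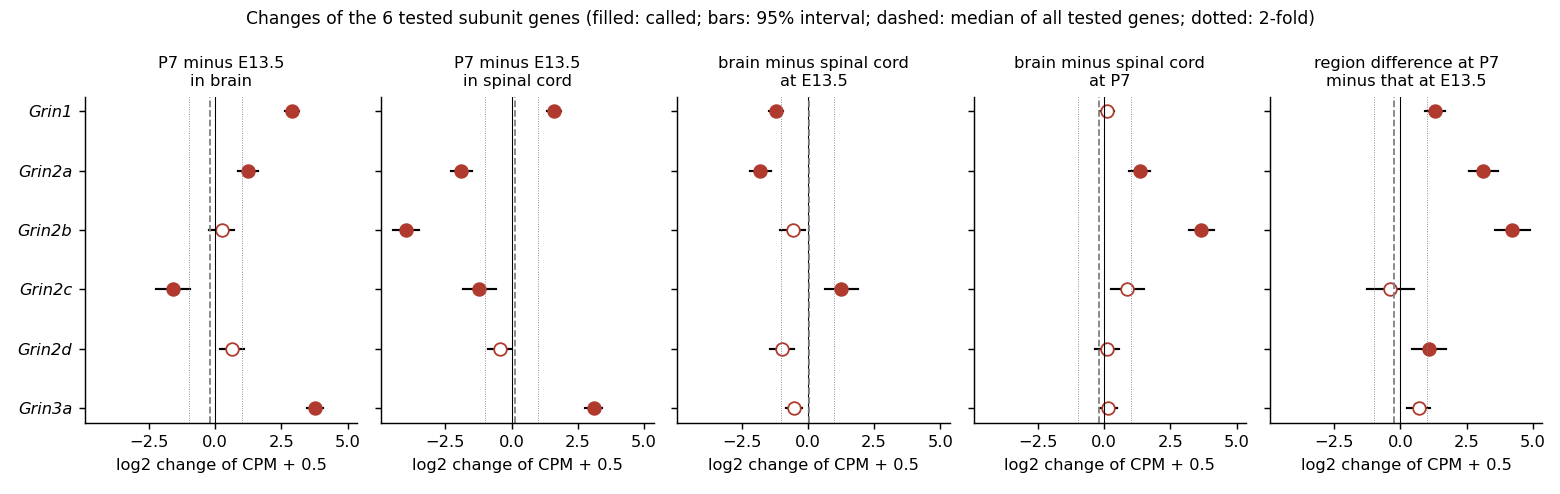
Log2 change of CPM + 0.5 for the 6 tested NMDA receptor subunit genes in each of the 5 comparisons, with 95% intervals, filled points for called genes, a dashed line at the median of all tested genes and dotted lines at 2-fold. Grin1 and Grin3a lie on the right in both age comparisons, Grin2b lies near 0 in brain and at -3.98 in spinal cord, and 4 points are filled in the last panel, all to the right.

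The deposited scaling placed the median of all tested genes at -0.189 for age in brain and -0.186 for the regions at P7. Factors recomputed by the trimmed mean of M values (TMM) moved these medians by 0.173 and 0.167, since the deposited factors differ from TMM in the P7 brain libraries alone. With TMM, 49.1% of calls for age in brain were higher at P7 instead of 39.7%, and 46.6% of calls between regions at P7 were higher in brain instead of 34.3%. Relative to the median of all tested genes, Grin1 changed by 3.09 in brain and 1.47 in spinal cord, Grin3a by 3.97 and 2.97, Grin2a by 1.42 and -2.02, and Grin2b by 0.43 and -4.10. No subunit gene changed sign with TMM or median-ratio scaling, and all called ones stayed called.

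The medians over the 6 tested subunit genes were 0.94 for age in brain and -0.82 for age in spinal cord, against -0.189 and 0.124 over all tested genes. For the regions they were -0.77 at E13.5 and 0.52 at P7, against 0.0515 and -0.186 over all tested genes. The spread within the family was wide. In spinal cord it ran from -3.98 for Grin2b to 3.10 for Grin3a in the change with age, and in brain from -1.59 for Grin2c to 3.78 for Grin3a.

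Levels can be set beside each other between genes only per length. Per kilobase of union exon length in GENCODE M21, Grin2b led in both E13.5 groups, at 1.66 ± 0.27 CPM per kilobase for brain and 2.44 ± 0.10 in spinal cord. Grin3a followed at 1.24 ± 0.31 and 1.76 ± 0.15, overlapping with Grin2b in brain but not in spinal cord. At P7 Grin3a led at 17.1 ± 0.52 in brain and 15.3 ± 0.26 in spinal cord, followed by Grin1 at 4.11 ± 0.16 and 3.83 ± 0.37, with no overlap between them. Next came Grin2b in P7 brain at 1.95 ± 0.09 and Grin2d in P7 spinal cord at 0.925 ± 0.045, above Grin2a at 0.157 ± 0.030 and Grin2b at 0.143 ± 0.056, which overlapped. In E13.5 brain Grin2d, Grin2c and Grin1 could not be ordered by union exon length, since their libraries overlapped between 0.387 and 0.793 CPM per kilobase. By coding length Grin1 (1.60 to 1.82 CPM per kilobase) lay above Grin2d (0.703 to 1.33) there, and Grin2b lay above Grin3a with no overlap.

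Per kilobase the ratio of Grin3a to Grin1 at E13.5 was 2.43 ± 0.57 in brain, against 1.43 ± 0.11 in spinal cord. At P7 it was 4.18 ± 0.06 in brain and 4.03 ± 0.45 in spinal cord, above all E13.5 libraries. The sum of the GluN2 genes over Grin1 went the other way, from 6.06 ± 0.38 and 3.77 ± 0.71 at E13.5 to 0.860 ± 0.103 (brain) and 0.328 ± 0.006 (spinal cord) at P7. Grin3a made up 25.2% and 23.0% of the summed CPM per kilobase of all 7 subunit genes at E13.5 (brain, then spinal cord) and 69.1% and 74.8% at P7. The ratios and shares are descriptions of RNA and say nothing of the subunits that reach the membrane.

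Grin2b held the most of the GluN2 sum in all groups but P7 spinal cord. It held 53.8% ± 6.4 of that sum per kilobase of union exon in E13.5 brain, 53.3% ± 0.7 in spinal cord at that age and 55.5% ± 3.2 in P7 brain. In P7 spinal cord it held 11.2% ± 3.7, from 6.96% to 13.7% over the 3 libraries, and Grin2d held 74.1% ± 4.4, from 70.7% to 79.1%, against 12.9% to 30.6% in the other 9 libraries. Grin2c held 20.0% ± 6.4 in E13.5 brain and 2.12% to 4.60% on average elsewhere. Grin2a held 5.58% ± 0.94 in E13.5 brain and 12.5% to 14.3% in the other groups.

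The shares depend on the length used, because the union of exons counts long untranslated ends that not all transcripts carry. Per kilobase of the longest coding sequence, Grin2b held 77.9%, 72.8% and 74.9% in the same 3 groups and 25.8% ± 7.5 in P7 spinal cord, where Grin2d held 51.8% ± 6.2. Grin2d was thus the leading GluN2 gene in P7 spinal cord with both lengths, and Grin2b in the other 3 groups.

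**Figure D3:**
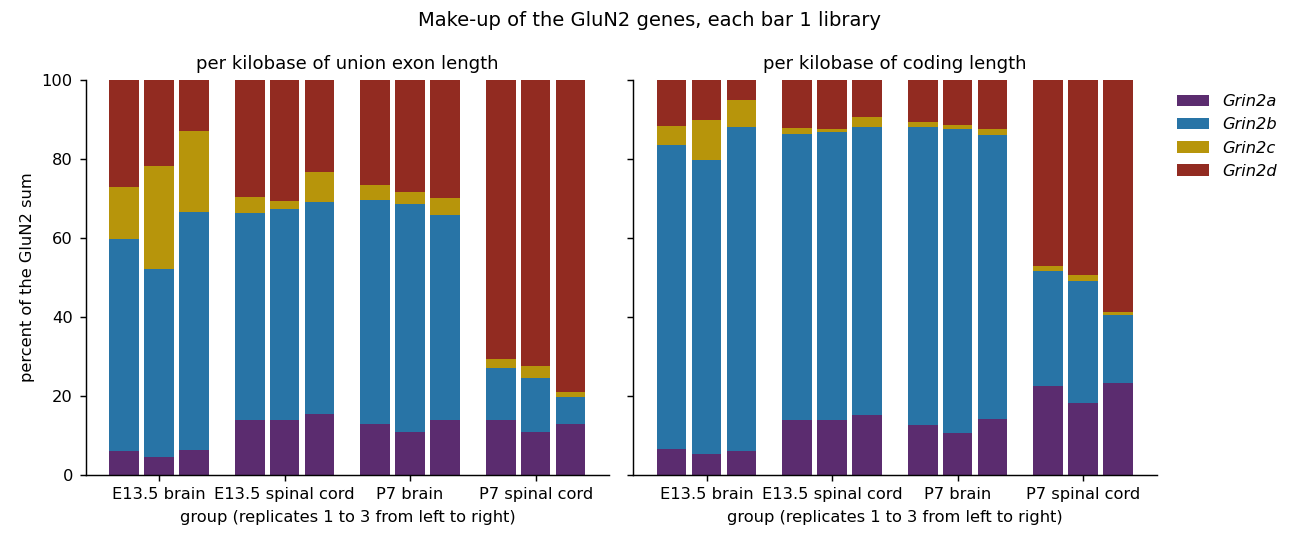
Share of Grin2a, Grin2b, Grin2c and Grin2d in their summed CPM per kilobase in each library, with union exon length on the left and coding length on the right. Grin2d is the widest part of the 3 bars of P7 spinal cord (70.7% to 79.1% on the left, 47.1% to 58.8% on the right), while Grin2b is the widest part of the other 9 bars.

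Some member genes share their locus with another gene. Grin3a encloses Ppp3r2, a testis-type calcineurin subunit gene on the same strand inside an intron, which read 0.855 to 1.73 CPM at E13.5 and 2.64 to 4.4 CPM at P7. Grin3b shares 1059 exon bases with Tmem259 on the opposite strand, which read 50.4 to 103 CPM, so the few Grin3b reads are uncertain if counting did not use strand, which the sources used here do not state. Grin1 overlaps its antisense gene Grin1os over 1307 exon bases, and that gene stayed at or below 0.0909 CPM. The genes that overlap Grin2b were near 0 in all libraries. Grin2d overlaps Kdelr1 on the opposite strand, which read 41.3 to 74.7 CPM and shares no exon bases with it, and antisense Gm45441, which shares 643 exon bases and was not analysed here.

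Scaffold proteins hold NMDA receptors at synapses. Of 14 scaffold genes, 3 were called higher and 1 lower at P7 in brain, where 27.7% of all tested genes were called, and 1 higher and 2 lower in spinal cord, where 35.1% were. Both counts are near or under these shares. In brain Dlgap1 (2.15), Dlg2 (1.46), which encodes PSD-93, and Dlgap2 (-1.56) had the widest called changes, and in spinal cord Homer2 (1.92), Dlgap2 (-1.74) and Shank1 (-1.17) did. The median over the 14 was 0.318 in brain and -0.0651 in spinal cord. Between regions, 3 were called at E13.5, all lower in brain, against 5.17% of all tested genes called lower there. They were Dlg2 (-1.40), Dlgap1 (-1.30) and Shank1 (-1.06), of which Shank1 lost its call without E13.5 spinal cord replicate 3. None was called at P7. Like Grin1 and Grin2a, Shank1 (1.96) and Dlgap1 (1.53) shifted toward brain with age, whereas Homer2 (-1.11) shifted toward spinal cord.

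Of 11 genes for trafficking and associated proteins, 6 were called higher and 1 lower at P7 in brain, against 11.0% and 16.7% of all tested genes. In spinal cord 3 were called higher and 0 lower, against 16.9% and 18.2%. The calls of both directions together are under the 35.1% of all tested genes called there, but the higher calls are above their share. Neto1, an auxiliary protein first described with NMDA receptors, rose in brain by 2.47 and in spinal cord by 3.01, from 7.88 ± 1.61 and 4.07 ± 1.93 CPM at E13.5 to 45.3 ± 3.2 and 33.7 ± 0.5 CPM at P7. Lin7a rose in brain by 2.10 and not in spinal cord (-0.01), a difference that was itself called at 2.11. Apba1 rose by 1.95 and 1.07, and Cask was called higher in both regions, but in spinal cord not without E13.5 spinal cord replicate 3.

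The receptors' co-agonists are made and moved by 12 listed genes, of which 11 were tested. At P7, 5 were called higher and 0 lower in brain, against 11.0% and 16.7% of all tested genes. In spinal cord 8 were called higher and 1 lower, against 16.9% and 18.2%. Slc7a10, an exchanger of D-serine and glycine, rose in brain by 2.70 and in spinal cord by 2.19. Slc6a9, the glial glycine transporter, rose by 1.44 and 1.04, and Psat1, of the serine synthesis pathway, rose by 1.17 and 3.10. Slc6a5, the glycine transporter of inhibitory neurons, read 32.9 ± 6.6 CPM in spinal cord at E13.5 and 1.44 ± 1.00 CPM there at P7, and it was listed at 0 in all P7 brain libraries. At P7, 0 of the 11 were called higher in brain than in spinal cord and 2 lower, against 2.27% and 4.35% of all tested genes. With age 1 shifted toward brain and 3 toward spinal cord (4 without E13.5 spinal cord replicate 3), against 6.66% and 9.66%.

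All 3 glutamate transporters were called between ages in spinal cord and 2 of them in brain, against 35.1% and 27.7% of all tested genes. Slc1a1 rose in brain by 5.09 and in spinal cord by 4.93, and Slc1a2 by 2.96 and 1.53. Slc1a3 fell by 1.11 in spinal cord, while its change in brain was 0.06 and not called. Of 15 kinases, phosphatases and signalling partners, 5 were called higher and 0 lower at P7 in brain, against 11.0% and 16.7% of all tested genes, and 4 higher and 4 lower in spinal cord, against 16.9% and 18.2% (4 and 5 without E13.5 spinal cord replicate 3). Rasgrf1, an exchange factor for Ras that binds NMDA receptors, rose by 5.004 and 3.78, and Fyn, a kinase of GluN2 tails that is also needed for myelination, rose by 2.56 and 3.44. Camk2a, the kinase that docks on GluN2B, was at 13.8 ± 0.4 CPM in brain at P7, against 1.32 ± 0.28 CPM in spinal cord, a called difference of 2.98 in the direction of that of Grin2b. Nos1 (1.82) and Rasgrf1 (1.44) were the other 2 called between regions at P7, where 6.62% of all tested genes were called. In all, 7 of the 15 (8 without that library) shifted toward brain with age and 0 toward spinal cord. Of all tested genes, 6.66% and 9.66% did. The shifts toward brain were led by Camk2a (1.95), Actn2 (1.60) and Ptpn5 (1.27).

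**Figure D4:**
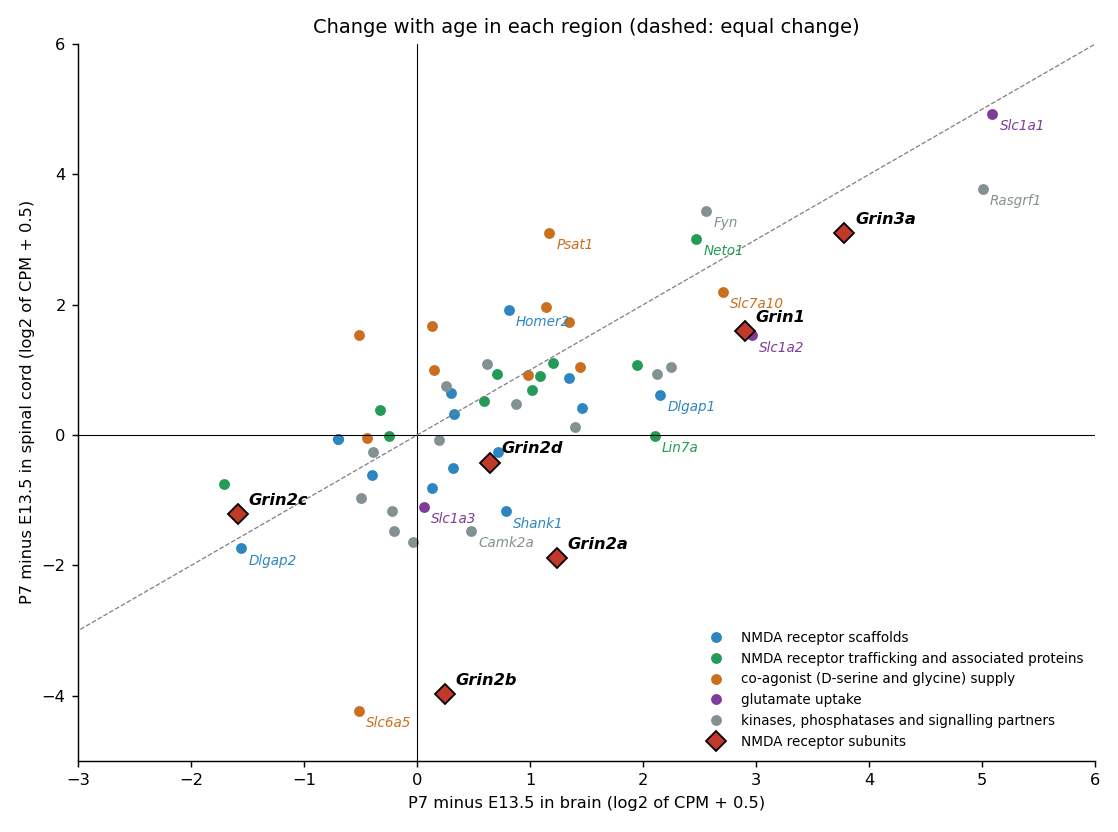
Log2 change with age in brain (horizontal) and in spinal cord (vertical) for the 6 tested NMDA receptor subunit genes (diamonds) and the genes of 5 related lists (dots), with a dashed line at equal change. Grin3a and Grin1 lie at the upper right, Grin2c at the lower left, and Grin2b and Grin2a below the horizontal axis at -3.98 and -1.89 in spinal cord.

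Marker lists of the cell types that the sort could hold moved with the same comparisons. OPC markers were called higher at P7 in 8 of 9 cases in both regions, and Vcan fell by 1.32 on the log2 scale in spinal cord. Of all tested genes, 11.0% were called higher in brain and 16.9% in spinal cord. No OPC marker was called between regions at P7, where 6.62% of all tested genes were. At E13.5, 5 of the 9 were called higher in brain and 0 lower (4 and 1 without E13.5 spinal cord replicate 3), against 3.53% and 5.17%. The regional difference shifted toward spinal cord with age in 4 and toward brain in 0 (1 without that library), against 9.66% and 6.66%. Differentiating oligodendrocyte markers, Gpr17 and Mbp among them, were called higher at P7 in 13 of 14 cases in brain and 14 of 14 in spinal cord. At P7, 10 of the 14 were called lower in brain than in spinal cord, against 4.35% of all tested genes. Their summed level was 5423 to 9129 CPM in P7 brain, against 25814 to 32900 CPM in P7 spinal cord. At E13.5 the sum was 112 to 309 CPM over the libraries of both regions.

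Neuron markers were called lower with age in 4 of 16 cases and higher in 1 in brain, and lower in 8 and higher in 2 in spinal cord (higher in 1 without E13.5 spinal cord replicate 3), where 27.7% and 35.1% of all tested genes were called. At P7, 4 of the 16 were called higher in brain and 1 lower, against 2.27% and 4.35% of all tested genes. With age, 5 shifted toward brain and 1 toward spinal cord, against 6.66% and 9.66%. The summed level of the list, most of it Map2, was 1507 to 1608 CPM in P7 brain, against 1699 to 1729 CPM in P7 spinal cord, and no marker of this list was at 0 in all libraries of a group.

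With age, 16.7% of all tested genes were called lower in brain and 18.2% in spinal cord, and 11.0% and 16.9% higher. Pericyte and leptomeningeal markers were called lower at P7 in 6 of 8 cases in brain, with 1 higher, and in 8 of 8 in spinal cord. Their sum was 2591 to 5813 CPM at E13.5 and 651 to 1306 CPM at P7, opposite to Grin1 and Grin3a. At E13.5, 4 of the 8 were called lower in brain, against 5.17% of all tested genes. Radial glia and astrocyte markers were called higher at P7 in 7 of 9 cases in brain and 6 of 9 in spinal cord, and lower in 1 (Gja1, -2.73) and 2 (Gja1, -3.86, and Slc1a3, -1.11). Microglia markers were called higher in P7 brain than in P7 spinal cord in 5 of 5 tested cases, against 2.27% of all tested genes. Their sum was 23.7 to 52.9 CPM in P7 brain, against 3.72 to 12.1 CPM in P7 spinal cord. The part of these lists in the changes of the subunit genes was not tested.

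The genes whose log2(CPM + 0.5) followed each member most closely over the 12 libraries were taken from 13493 tested genes with a mean of at least 1 CPM. For Grin3a they were Sdc3, Slc9a7 and Ptprt, with Pearson r of 0.998, 0.998 and 0.997, and 11.9% of the compared genes reached an r over 0.9. For Grin1 they were Lrrtm4, Pcdhb20 and Cav1 (r of 0.994, 0.994 and 0.993), and 6.60% were over 0.9. Patterns like those of the GluN2 genes were rarer. Over 0.9 were 36 genes for Grin2b, led by St6galnac5 (0.981), Mical2 (0.973) and Draxin (0.972), and 17 for Grin2a, led by Spock1 (0.946), Pclo (0.942) and Sv2c (0.942). For Grin2c 43 were over 0.9, led by Hrh3 (0.966), Fam210b (0.961) and Islr2 (0.954), and for Grin2d 11, led by Tbc1d4 (0.928), Camta2 (0.927) and Izumo4 (0.926). These correlations share the 4 groups and the same libraries, so a gene that separates the ages is close to many others, and they are given as a description.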

How the data were processed

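The authors mapped stranded paired-end reads of 12 libraries to mm10 (GRCm38) with STAR 2.5.0a and counted them per gene with featureCounts 1.5.0-p1 on GENCODE M8, with multi-mapping reads split and rounded; whether counting used strand is not given in the sources used here. The submitters' processing notes also name HISAT2 2.0.5 and StringTie 1.3.1c. The deposited table holds CPM in 9 columns, scaled by a factor per library. The other 3 columns (E13.5 spinal cord replicate 3 and P7 spinal cord replicates 1 and 2) sum to more than unscaled CPM values can. Their scaling factors were below 1 (0.4717, 0.9547 and 0.9706, in that order). Their values are a scaled signal, counts divided by size factors by the authors before deposit, in the same way as the CPM. All 12 columns were therefore analysed alike as CPM. Of 47072 rows, 3 repeated rows were dropped, and 0 columns were left unused.

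Whole reads were recovered in all columns (100% of values within 0.05 of a whole number). Values were tested as log2(CPM + 0.5) with limma 3.58.1 (R 4.3.3, intensity trend, 1 mean per group) for the 18319 genes that reached 0.7 CPM in 3 or more libraries. Fold changes on this scale understate changes of low genes. Alternatives used limma-voom, edgeR 4.0.16 and DESeq2 1.42.0 on the recovered reads; edgeR called 5989, 7389, 2081, 1562 and 2951 genes for age in brain, age in spinal cord, the regions at E13.5 and at P7, and their shift. The scripts were tested on simulated data. Gene positions and lengths are from GENCODE M21, not M8. Coding length is that of the longest coding sequence.

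The subunit genes, the lists and the rule for naming genes were chosen with earlier results of these data known. Named were all subunit genes, from each related list up to 3 genes with the widest called change in a comparison, up to 3 markers per list by mean CPM, the 3 genes most like each tested member, Pdgfra and genes that overlap a member. Replicates are separate pools of cells, so p-values measure only the spread between these pools. The limit that a count of 0 allows (3 reads) covers counting error only. No reference protein or genome sequence was used here.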

Additional observations from a re-analysis of the deposited data

Results flagged for a closer look

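The difference between brain and spinal cord changed with age in 4 subunit genes, by a test of the interaction of region and age in limma over all 18319 tested genes. The shift toward brain from E13.5 to P7 was 1.30 for Grin1, 3.12 for Grin2a, 4.22 for Grin2b and 1.07 for Grin2d on the log2(CPM + 0.5) scale, with adjusted p of 0.000127, 4.36e-06, 2.44e-06 and 0.0121. For Grin2a all P7 brain libraries lay above all E13.5 brain libraries, and all P7 spinal cord libraries lay below all E13.5 spinal cord libraries. For Grin2b it was near 0 in brain and -3.98 in spinal cord. For Grin1 both regions rose, brain by more, and for Grin2d neither change with age was called. Marker lists moved in the same test, where 6.66% of all tested genes shifted toward brain and 9.66% toward spinal cord. Toward brain shifted 5 of 16 neuron markers and 4 of 5 microglia markers, with 1 and 0 toward spinal cord. So did 4 of 9 radial glia and astrocyte markers and 2 of 8 pericyte and leptomeningeal markers, with 1 and 0 toward spinal cord. Toward spinal cord shifted 9 of 14 differentiating oligodendrocyte markers and 4 of 9 OPC markers, with 0 toward brain in both. Their part in the shifts of the subunit genes was not tested. Groups of 3 libraries are too small for a search for single outlying libraries.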

How the results depend on the processing

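The number of subunit genes called stayed within 1.5 times under each alternative: 3 or 4 for age in brain, 4 or 5 for age in spinal cord, 2 to 4 for the regions at E13.5, 2 or 3 for the regions at P7 and 3 to 5 for their shift with age. With each library left out in turn the counts were 4, 4 to 5, 2 to 4, 2 and 3 to 4 in the same order. All genes called then numbered 4952 to 5113, 6305 to 7045, 1541 to 1802, 1146 to 1291 and 2796 to 3817. Single values kept their side in 678 of 703 cases. The shift of Grin2c turned from -0.38 to 0.15 with a pseudocount of 0.1, 0.65 with limma-voom, 0.70 with edgeR and 0.88 with DESeq2, none of them called, and the P7 difference of Grin2d turned to -0.0069 without P7 brain replicate 3 (-0.0069 to 0.19 over the libraries left out); the cause was not tested. Grin2c was called between regions at P7 with a pseudocount of 0.1 (1.72), limma-voom (2.49), edgeR (2.48) and DESeq2 (2.53), and lost its fall in spinal cord with a pseudocount of 1 (-0.81). Grin2d was called between regions at E13.5 with a pseudocount of 0.1 (-1.04), median-ratio scaling (-1.06), limma-voom (-1.15), edgeR (-1.09) and DESeq2 (-1.15), and without E13.5 brain replicate 1 (-1.15) or 2 (-1.03) or E13.5 spinal cord replicate 3 (-1.12), and its shift was not called with a pseudocount of 1 (0.99). Grin3a's shift was called with median-ratio scaling (1.011). Under the filter of 1 CPM in 6 libraries Grin2c was not tested. With TMM the calls toward brain in the shift were 54.9% of all calls, and 65.1% with median-ratio scaling, against 40.8% as deposited. Deviations of same-numbered brain and spinal cord libraries had correlations of 0.314, 0.082 and 0.412 at E13.5. Differently numbered pairs ran from -0.436 to 0.203 there, so they overlapped with the same-numbered ones. At P7 the same-numbered correlations were 0.0127, 0.0247 and 0.0445. The labels do not tie the libraries, so the numbers were not taken to pair the samples. The replicate block gave 4, 5, 3, 2 and 4 called subunit genes and changed no call among them. All genes called with it numbered 5074, 6438, 1595, 1212 and 2994. Depth limits Grin3b (0 to 15 reads) and Grin2c in P7 spinal cord (2 to 6 reads).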
